A study of Mus musculus with 31 samples.

Results

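Iron is taken up, stored and exported by a small set of proteins, and electrophile or oxidant stress is answered by genes under the transcription factor NRF2. Such genes, 10 in all, were followed across 2 RNA-seq experiments, primary mouse microglia exposed to tau fibrils or to foreign DNA and hippocampi of tau transgenic mice. They were 4 genes of iron handling (Fth1, Ftl1, Slc40a1 and Tfrc) and 6 NRF2 target genes (Hmox1, Nqo1, Gclm, Srxn1, Txnrd1 and Slc7a11). They were selected on the measured tau response of microglia, because Fth1 was higher with tau in cells of both Cgas genotypes, so every tau comparison of these genes below is a description without a test. They were found by gene name among 54532 genes of the microglial count table and by the same Ensembl identifier among 48795 genes of the hippocampal one. All 10 were present in both tables and passed the filter on low counts in both.

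The microglial libraries formed 6 groups of 3 and came from cortical cultures of newborn Cgas+/+ (wild-type) or Cgas-/- pups. Cells of each genotype received vehicle, 2 µg/ml fibrils of recombinant 0N4R tau or 1 µg/ml HT-DNA (herring testis DNA), for 6 h. cGAS is a cytosolic DNA sensor, and HT-DNA is commonly used to activate it. Hippocampi came from 7 non-transgenic (Ntg) and 6 P301S mice of 8 to 9 months and both sexes, with 1 library per mouse. P301S mice carry a human MAPT transgene with the P301S mutation under the mouse prion promoter, and the labels give no Cgas genotype for them. The labels do not say whether the 3 libraries of a microglial group came from separate cultures, and the study describes its microglial samples as biologically independent.

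Libraries held 17037459 to 25174764 counts in microglia and 25953296 to 35779977 in hippocampi. Values below are normalized CPM, read counts scaled to a common library size (with TMM factors), and differences are on the log2 scale with their SE. A gene was called when its adjusted p from edgeR's quasi-likelihood test was under 0.05. As a check of the labels, Cgas stood at 23.2 ± 4.21 CPM (SD, n = 3) in wild-type vehicle cells and 4.93 ± 0.748 in knockout vehicle cells, with all wild-type libraries between 18.8 and 44.3 and all knockout libraries between 3.76 and 7.45. Mapt stood at 572 ± 46.9 CPM (SD, n = 7) in hippocampi without the transgene and 997 ± 88.5 (SD, n = 6) in those with it. Summed CPM of 12 microglial markers ran from 7237 to 7527 in wild-type and from 4664 to 5152 in knockout cultures. Siglech, a defining marker on that list, was at 0 in all vehicle libraries of both genotypes. In bulk RNA, fewer cells of a type and less RNA per cell cannot be told apart.

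Ferritin is a cage of heavy (FTH1) and light (FTL) chains that stores iron in the cytosol. Ferroportin, the product of Slc40a1, carries iron out of the cell and the transferrin receptor, the product of Tfrc, brings it in. When iron is scarce, the iron regulatory proteins IRP1 (Aco1) and IRP2 (Ireb2) bind a stem-loop in these mRNAs, the iron-responsive element (IRE): at the 5′ end they block translation, and at the 3′ end of Tfrc they protect the transcript from decay. NRF2, the product of Nfe2l2, is held down by KEAP1 and, once released, binds antioxidant response elements of its target genes together with small MAF proteins, where BACH1 competes with it at genes such as Hmox1. In microglia and macrophages these systems meet at heme oxygenase, which frees iron from heme.

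The IREs of Fth1, Ftl1 and Slc40a1 mark members whose protein output can move without the mRNA counts measured here. Those of Tfrc protect its transcript from decay when bound, so there the counts can move too. Each element was found in the GRCm38 transcripts as a bulged C, a stem of 5 pairs (G-U pairs allowed) and a loop of 6 bases. They are printed 5′ to 3′ in the mRNA sense, with the bulged C and the loop in capitals.
Fth1 5′ UTR, chr19:9982732-9982761, plus strand: uuccugCuucaaCAGUGCuugaacggaacc
Ftl1 5′ UTR, chr7:45459778-45459807, minus strand: gucuugCuucaaCAGUGUuugaacggaaca
Slc40a1 5′ UTR, chr1:45925464-45925493, minus strand: caacuuCagcuaCAGUGUuagcuaaguuug
Tfrc 3′ UTR, site 1, chr16:32631219-32631248, plus strand: aauuauCggaagCAGUGCcuuccauaauua
Tfrc 3′ UTR, site 2, chr16:32631598-32631627, plus strand: cauuauCgggagCAGUGUcuuccauaaugc
Tfrc 3′ UTR, site 3, chr16:32631663-32631692, plus strand: cuauauCggagaCAGUGAucuccauauguu
Tfrc 3′ UTR, site 4, chr16:32631710-32631739, plus strand: aauuauCgggaaCAGUGUuucccauaauuu

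Fth1, Ftl1 and Slc40a1 each held 1 such element in the 5′ UTR, and Tfrc held 4 in its 3′ UTR. The 7 sites lie inside the genes Fth1 (chr19:9980598-9985098, plus strand), Ftl1 (chr7:45457944-45459884, minus strand), Slc40a1 (chr1:45908068-45926523, minus strand) and Tfrc (chr16:32608920-32632794, plus strand). The same letters and pairing were found in the 5′ UTR of 23 of 20597 genes (0.112%) and in the 3′ UTR of 100 of 20995 (0.476%). A match is a description of the letters and was not tested for binding.

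For the NRF2 target genes, the promoters of RefSeq (GRCm38.p6, 250 bases before to 50 after each start) were searched on both strands for TGACNNNGC, the core letters of the antioxidant response element. Of the 8 members with an entry 3 held it, Gclm, Srxn1 and Txnrd1, against 12.4% of 32851 promoters and 14% of genes. The other 5 were Fth1, Ftl1, Tfrc, Nqo1 and Slc7a11, and the promoters of Slc40a1 and Hmox1 were not analysed here. The 3 matches printed are all that the search found in the members. These 3 genes moved in opposite directions with HT-DNA in the 2 genotypes, and a link of that to the match was not tested. Nqo1 moved likewise, and its promoter held no match. Tfrc, without a match, and Slc40a1, not searched, also changed sign, though neither was called in knockout cells. Each match is on the strand opposite to the gene, with the fixed letters of the motif in capitals.
Gclm, chr3:122245413-122245441, minus strand: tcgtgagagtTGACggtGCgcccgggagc
Srxn1, chr2:152105542-152105570, minus strand: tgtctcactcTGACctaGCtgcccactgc
Txnrd1, chr10:82859104-82859132, minus strand: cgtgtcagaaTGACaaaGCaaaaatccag

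The match lay 134 to 126 bases before the start of Gclm and 28 to 36 bases after that of Srxn1. In Txnrd1 it lay 92 to 84 bases before 1 of the 3 starts searched, and the other promoters of the gene held none. This start is inside the gene, which spans chr10:82833951-82897712. No match says only that these letters were not in this window.

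Fth1, the heavy chain of ferritin, took between 1.11% and 1.66% of all counts in the microglial libraries. It stood at 11190, 10748 and 11617 CPM in the 3 wild-type vehicle libraries, at 14799, 14602 and 15006 with tau and at 12382, 13224 and 12956 with HT-DNA. In Cgas-/- cells it stood at 12070, 13064 and 11982 CPM with vehicle, at 16056, 16276 and 16281 with tau and at 12992, 13661 and 12690 with HT-DNA. Tau libraries were above all vehicle libraries of their genotype, and in wild-type cells HT-DNA libraries lay between the vehicle and the tau libraries without overlap. Ftl1, the light chain, had another layout. Its wild-type libraries read 6514, 6188 and 5739 CPM with vehicle, 5715, 6616 and 5623 with tau and 5739.7, 5615 and 5742 with HT-DNA, and its knockout libraries 5567, 5862 and 6922 CPM with vehicle, 6443, 6696 and 7290.1 with tau and 5723, 7047 and 6713 with HT-DNA. Every treated group of Ftl1 overlapped its vehicle group. Ferritin genes have processed copies that can share reads: 14 other genes named Fth or Ftl were in the microglial table, 2 of them with over 31 counts in any library, and the copy Ftl1-ps1 held 0.672% to 0.797% of the counts of Ftl1.

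Slc40a1, the iron exporter, stood at 97, 95.2 and 101 CPM in wild-type vehicle libraries, at 95.8, 105 and 96.1 with tau and at 60.8, 56.2 and 64.3 with HT-DNA. Its knockout libraries read 74.3, 70.7 and 76.8 CPM with vehicle, 94, 92.7 and 98 with tau and 79.7, 81.7 and 82.5 with HT-DNA. The HT-DNA libraries were the lowest group of wild-type cells and vehicle the lowest group of knockout cells, in each case without overlap with the other groups of that genotype. Tfrc, the uptake receptor, stood at 47.9, 48.7 and 40.3 CPM with vehicle, 41.8, 44 and 46.4 with tau and 38.9, 36.2 and 41.6 with HT-DNA in wild-type cells. In knockout cells it stood at 64.7, 59.5 and 61.4 CPM with vehicle, 58.2, 57.4 and 57 with tau and 66.8, 69.3 and 65.6 with HT-DNA. Every knockout library of Tfrc was above every wild-type library, whatever the treatment.

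Hmox1, the inducible heme oxygenase, stood at 1220.2, 1127 and 1146 CPM with vehicle, 1665, 1678 and 1768 with tau and 1166, 1148 and 1169.5 with HT-DNA in wild-type cells. Its knockout libraries read 1153, 1159 and 1168 CPM with vehicle, 1724, 1723 and 1701 with tau and 1391, 1401 and 1386 with HT-DNA. HT-DNA libraries thus lay within the vehicle range in wild-type cells and between the vehicle and the tau libraries in knockout cells. Slc7a11, the cystine carrier that feeds glutathione synthesis, had the same layout: 304, 298 and 283 CPM with vehicle, 584, 592 and 640.1 with tau and 301.2, 286 and 304 with HT-DNA in wild-type cells, and 338, 340.3 and 345 CPM with vehicle, 716, 737 and 702 with tau and 469, 453 and 478 with HT-DNA in knockout cells.

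Gclm encodes the modifier subunit of the enzyme that makes the first bond of glutathione. It stood at 269.8, 250.3 and 252 CPM with vehicle, 380.1, 424 and 414 with tau and 189, 176 and 186 with HT-DNA in wild-type cells. In knockout cells it stood at 219, 221 and 235 CPM with vehicle, 458, 438 and 459 with tau and 258, 272 and 275 with HT-DNA. Srxn1, sulfiredoxin, which repairs overoxidized peroxiredoxins, stood at 318, 310.4 and 284 CPM with vehicle, 469, 473 and 484 with tau and 219, 210.5 and 218 with HT-DNA in wild-type cells. Its knockout libraries read 260.0, 256 and 271 CPM with vehicle, 464, 466 and 463 with tau and 331, 344 and 364 with HT-DNA. Both genes placed HT-DNA libraries below all vehicle libraries in wild-type cells and above them in knockout cells.

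Txnrd1, thioredoxin reductase, followed that layout, with 476, 459.5 and 460.0 CPM with vehicle, 738, 721 and 777 with tau and 376, 353 and 359.5 with HT-DNA in wild-type cells and 552, 561 and 587 CPM with vehicle, 884, 956 and 967 with tau and 635, 676 and 693 with HT-DNA in knockout cells. Nqo1, a quinone reductase, had the fewest counts of the 10, so its values are the least precise. It stood at 9.31, 7.22 and 8.26 CPM with vehicle, 14.7, 14.7 and 16 with tau and 4.51, 5.44 and 6.83 with HT-DNA in wild-type cells. In knockout cells it stood at 8.32, 7.77 and 7.43 CPM with vehicle, 19.1, 19.7 and 20.7 with tau and 9.80, 12 and 11.2 with HT-DNA. Here too HT-DNA libraries were all below vehicle in wild-type cells and all above it in knockout cells.

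**Figure D1:**
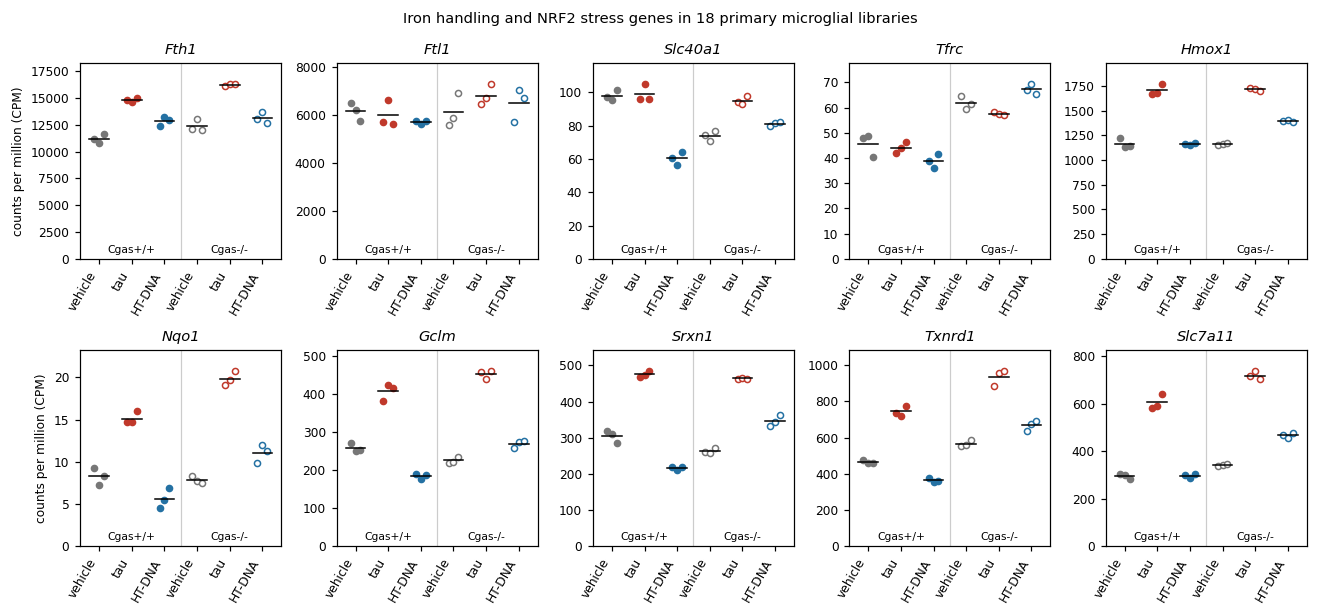
Normalized CPM of each of the 10 genes in the 6 microglial groups, with 1 point per library and a line at the group mean. Fth1 and the 6 NRF2 target genes had every tau library above every vehicle library of the same genotype, whereas Ftl1 groups overlapped.

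The tau comparison, which the choice of these genes used, is described first, and it shares its vehicle libraries with the HT-DNA comparison. In wild-type cells the log2 difference of tau from vehicle was 0.40 for Fth1, 0.55 for Hmox1, 0.64 for Srxn1, 0.66 for Gclm, 0.68 for Txnrd1, 0.87 for Nqo1 and 1.04 for Slc7a11. The other 3 iron genes were near 0, at -0.039 for Ftl1, 0.017 for Slc40a1 and -0.054 for Tfrc. In Cgas-/- cells the same differences were 0.39 for Fth1, 0.56 for Hmox1, 0.82 for Srxn1, 1.01 for Gclm, 0.72 for Txnrd1, 1.34 for Nqo1 and 1.07 for Slc7a11. Slc40a1 stood at 0.36, Ftl1 at 0.15 and Tfrc at -0.10. By count, 7 of the 10 were called higher and 0 lower in wild-type cells, where 15.8% of the 13675 genes tested were called higher and 12.2% lower, and 8 were called higher and 0 lower in knockout cells, where these shares were 11.2% and 5.48%. The choice of members used these values, so nothing is read from the counts. Past the study's limit of 1 on the log2 scale stood 1 member in wild-type cells (3.41% of all genes tested) and 3 in knockout cells (2.73%).

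The difference between the 2 genotypes in their tau response is made of the same values, and for Fth1, chosen for being higher in both, it was largely set by the choice, so it too is a description without a test. Slc40a1 stood higher by 0.34 ± 0.071 and Gclm by 0.35 ± 0.065 more with tau in Cgas-/- than in wild-type cells. For Slc40a1, tau libraries were beside vehicle libraries in wild-type cells and above them in knockout cells. Knockout tau library 3, at 98 CPM, lay within the range of the wild-type vehicle and tau libraries. Knockout tau libraries 1 and 2, at 94 and 92.7 CPM, lay below that range, which began at 95.2 CPM. The same quantity was 0.47 ± 0.16 for Nqo1, 0.18 ± 0.061 for Srxn1, 0.038 ± 0.06 for Slc7a11 and -0.015 ± 0.048 for Fth1. By count, edgeR called 2 of the 10 members, Slc40a1 and Gclm, where 3.61% of all genes had a larger and 3.31% a smaller response in knockout cells. Summed microglial markers were at 7394–7527 CPM with tau and 7349–7455 with vehicle in wild-type cells (3 of 11 tested markers called higher and 3 lower) and at 5118–5152 and 4736–4889 in knockout cells (3 of 11 higher). Astrocyte markers summed to 10.8–13.2 and 7.66–8.10 CPM in wild-type cells (2 of 7 higher). Their part in the result was not tested.

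HT-DNA gave a different picture in wild-type microglia: 4 of the 6 NRF2 target genes fell and Fth1 rose. In all, 6 of the 10 members fell (24.7% of all genes tested fell) and 1 rose (22.8% rose), and none was past the fold limit of 1, which 8.08% of all genes were. The vehicle libraries are those of the tau comparison, so the HT-DNA and tau differences share their controls. Slc40a1 fell by 0.69 ± 0.052 on the log2 scale (edgeR adjusted p = 4.5e-12), Srxn1 by 0.50 ± 0.044 (edgeR adjusted p = 1.7e-10) and Gclm by 0.49 ± 0.047 (edgeR adjusted p = 9.0e-10). Nqo1 fell by 0.56 ± 0.13 (edgeR adjusted p = 0.000775) and Txnrd1 by 0.36 ± 0.044 (edgeR adjusted p = 9.6e-08). For these 5 genes all 3 HT-DNA libraries were below all 3 vehicle libraries, a layout that was not counted over all genes tested. Tfrc fell by 0.23 ± 0.065 (edgeR adjusted p = 0.00392) with libraries that overlapped. Fth1 rose by 0.20 ± 0.034 (edgeR adjusted p = 1.7e-05), with all HT-DNA libraries above vehicle. That rise rests on the scaling. TMM factors were 0.890 to 0.900 for the wild-type HT-DNA libraries and 1.028 to 1.052 for their vehicle libraries. As a share of unscaled library totals, Fth1 overlapped between the 2 groups. The same factors enter every HT-DNA difference in wild-type cells.

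Hmox1 and Slc7a11, both above all vehicle libraries with tau, had no detectable difference with HT-DNA in wild-type cells, at -0.0044 ± 0.035 (95% interval -0.074 to 0.065) and 0.01 ± 0.043 (95% interval -0.073 to 0.094). As shares of unscaled library totals, Hmox1 and Slc7a11 were below all vehicle libraries with HT-DNA. Ftl1 stood at -0.11 ± 0.07 and was not called. All 7 calls were made in each of the 6 fits that left out 1 library. Marker sums of other cells moved with HT-DNA in the wild-type cultures: the sum over 6 endothelial markers went from 273–304 to 409–415 CPM, with 2 of 3 tested markers called higher and 1 lower, and that over 8 oligodendrocyte markers from 85.9–97.0 to 112–118 CPM, with 3 of 5 called higher. Astrocyte markers summed to 7.66–8.10 CPM with vehicle and 13.1–16.5 with HT-DNA, with 1 of 7 called higher. Monocyte and neutrophil markers went from 79.9–90.9 to 100.2–110 CPM (1 of 3 called higher) and red blood cell markers from 1.40–3.28 to 2.95–5.76 CPM (1 of 2 higher). Oligodendrocyte precursor markers summed to 514–538 CPM with vehicle and 495–503 with HT-DNA, although 2 of 3 were called higher and 0 lower. Microglial markers summed to 7349–7455 and 7237–7457 CPM, with 3 of 11 called higher and 3 lower. Their part in the result was not tested.

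In Cgas-/- microglia the NRF2 target genes rose with HT-DNA. All 6 were called higher, against 1.04% of all genes tested, and no member was called lower, against 0.278%. No member was past the fold limit, as were 0.0219% of all genes. These differences also share the vehicle libraries of the tau comparison. Slc7a11 rose by 0.45 ± 0.042 (edgeR adjusted p = 5.1e-07), Srxn1 by 0.40 ± 0.044 (edgeR adjusted p = 6.3e-06) and Hmox1 by 0.26 ± 0.035 (edgeR adjusted p = 0.000151). Gclm rose by 0.26 ± 0.046 (edgeR adjusted p = 0.00319) and Txnrd1 by 0.24 ± 0.044 (edgeR adjusted p = 0.00389). Nqo1 rose by 0.50 ± 0.12 (edgeR adjusted p = 0.0278), and its call was lost in 5 of the 6 fits without 1 library, all but the fit without knockout HT-DNA library 1, with edgeR adjusted p from 0.0302 to 0.172 over the 6. In each of the 6 genes every HT-DNA library was above every vehicle library, which was not counted over all genes tested.

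None of the iron handling members was called with HT-DNA in knockout cells. Slc40a1 stood at 0.14 ± 0.051 and Tfrc at 0.12 ± 0.06, both with HT-DNA libraries above vehicle libraries, Fth1 at 0.084 ± 0.034 and Ftl1 at 0.086 ± 0.07. The 3 knockout HT-DNA libraries differed among themselves by up to 28.0 in chi-square per degree of freedom over genes, against 2.32 to 10.7 in the other microglial groups. Microglial markers summed to 4664–4947 CPM with HT-DNA and 4736–4889 with vehicle in these cells (0 of 11 called by edgeR), and endothelial markers to 223–249 and 229.9–246 CPM (0 of 3 called).

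**Figure D2:**
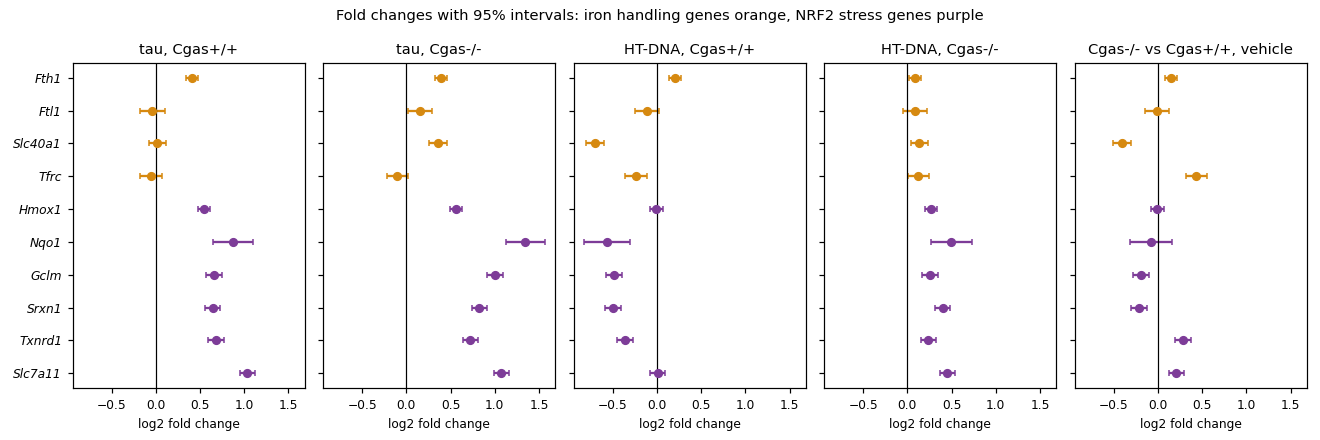
Log2 fold change of each of the 10 genes with its 95% interval, for each agent against vehicle in Cgas+/+ and Cgas-/- microglia. With HT-DNA, Slc40a1, Tfrc, Nqo1, Gclm, Srxn1 and Txnrd1 lay below 0 in Cgas+/+ cells and above 0 in Cgas-/- cells, with both intervals clear of 0. Ftl1 and Hmox1 had the same signs, with an interval in Cgas+/+ cells that held 0.

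The test of the difference itself, the interaction of HT-DNA with genotype, called 8 of the 10 members, all with a higher value in Cgas-/- cells, where 17.4% of all genes tested were called in that direction and 16.6% in the other. Nqo1 had the largest interaction of the 10, 1.06 ± 0.18 (edgeR adjusted p = 2.2e-05). It was followed by Srxn1 with 0.90 ± 0.062 (edgeR adjusted p = 4.9e-12), Slc40a1 with 0.83 ± 0.073 (edgeR adjusted p = 3.9e-10) and Gclm with 0.74 ± 0.066 (edgeR adjusted p = 5.5e-10). Txnrd1 had 0.60 ± 0.062, Slc7a11 0.44 ± 0.06, Tfrc 0.36 ± 0.089 and Hmox1 0.27 ± 0.05, with edgeR adjusted p of 1.1e-08, 9.9e-07, 0.00228 and 9.8e-05. All 8 calls were made in each of the 12 fits that left out 1 library. The ferritin chains were not called. Fth1 was the only member with a negative value, -0.12 ± 0.048 (edgeR adjusted p = 0.0641, against 0.0217 from DESeq2, and from 0.0205 to 0.25 over 12 fits without 1 library, 5 of which called it, those without knockout HT-DNA library 1 or 2, knockout vehicle library 3, wild-type HT-DNA library 1 or wild-type vehicle library 3). The sign of the Fth1 value also rests on the TMM factors given above for the wild-type libraries. Ftl1 stood at 0.20 ± 0.10 (edgeR adjusted p = 0.134, and 0.0139 without knockout vehicle library 3). The median over the 10 members was 0.52, beside 0.035 over all genes tested.

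Before any treatment 7 of the 10 members differed between the genotypes, as did 7110 of the 13675 genes tested, so the values are given for each gene and nothing is read from their number. Fth1, Tfrc, Txnrd1 and Slc7a11 were higher in Cgas-/- than in Cgas+/+ vehicle cells (24.7% of all genes tested were higher), and Slc40a1, Gclm and Srxn1 were lower (27.3% were lower). None was past the fold limit of 1, which 9.98% of all genes were. Tfrc was higher by 0.43 ± 0.062 (edgeR adjusted p = 1.1e-06), Txnrd1 by 0.28 ± 0.044 (edgeR adjusted p = 3.9e-06), Slc7a11 by 0.21 ± 0.042 (edgeR adjusted p = 0.000148) and Fth1 by 0.15 ± 0.034 (edgeR adjusted p = 0.000761). Slc40a1 was lower by 0.40 ± 0.051 (a log2 fold change of -0.40, edgeR adjusted p = 1.3e-07). Srxn1 stood at -0.21 ± 0.044 (edgeR adjusted p = 0.00016) and Gclm at -0.19 ± 0.047 (edgeR adjusted p = 0.000896). The 2 groups did not overlap in any of these 7 genes, and all 7 calls were made in every fit that left out 1 library. Groups without overlap were not counted over all genes tested, so nothing is read from that number either.

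Knockout and wild-type cultures also differed in their markers. Microglial markers summed to 4736–4889 CPM in knockout and 7349–7455 in wild-type vehicle cultures, with 9 of 11 tested markers called lower and 0 higher. Oligodendrocyte markers summed to 51.6–54.5 and 85.9–97.0 CPM (4 of 5 called lower), endothelial markers to 229.9–246 and 273–304 CPM (2 of 3 lower and 1 higher) and monocyte and neutrophil markers to 34.1–36 and 79.9–90.9 CPM (1 of 3 lower and 1 higher). Fibroblast markers summed to 0.209–0.572 and 2.70–4.59 CPM (3 of 3 lower) and red blood cell markers to 0.391–0.834 and 1.40–3.28 CPM (2 of 2 lower). Of astrocyte markers 2 of 7 were lower and 2 higher, and 1 of 3 oligodendrocyte precursor and 1 of 2 choroid plexus markers were lower. Their part in the genotype differences was not tested.

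The other genes of these pathways were counted from lists of 34 tested NRF2 targets, 15 NRF2 regulators, 21 iron genes, 18 heme genes and 23 genes of the ATF4 or integrated stress response. The lists were drawn up with earlier results of these data known. In brackets are log2 differences with their SE. For each of these lists and directions in microglia in which edgeR called 0 genes, DESeq2 also called 0. The counts stand beside the shares of all genes called higher and lower, which were 15.8% and 12.2% with tau and 22.8% and 24.7% with HT-DNA in wild-type cells, 11.2% and 5.48% with tau and 1.04% and 0.278% with HT-DNA in knockout cells, and 24.7% and 27.3% between the vehicle groups. For the interactions these shares were 3.61% and 3.31% with tau and 17.4% and 16.6% with HT-DNA. The median of the NRF2 target list was 0.20 with tau in wild-type and 0.33 in knockout cells, beside -0.010 and 0.0059 over all genes tested. With tau in wild-type cells, 14 of the other NRF2 targets rose and 3 fell. The largest rises were those of the peroxiredoxin Prdx1 (0.82 ± 0.044), the drug exporter Abcc1 (0.81 ± 0.045) and the autophagy receptor Sqstm1 (0.78 ± 0.048) and the falls were Abcc3 (-0.33 ± 0.06), Idh1 (-0.23 ± 0.049) and Ephx1 (-0.19 ± 0.061), the last of which was lost without wild-type tau library 1 or vehicle library 1 or 3. In knockout cells 19 rose and 0 fell, led by the peroxiredoxin Prdx6 (1.20 ± 0.047), Gsta3 (1.14 ± 0.20) and Abcc1 (1.08 ± 0.045). The interaction of tau with genotype called 4 targets higher in knockout cells, among them Cbr3 (0.53 ± 0.11), Prdx6 (0.48 ± 0.065) and Abcc1 (0.27 ± 0.064), and 2 lower, Sqstm1 (-0.33 ± 0.068) and Prdx1 (-0.22 ± 0.062), the second lost in 6 of 12 fits without 1 library. Gclc, the catalytic partner of Gclm, stood at 0.11 ± 0.062 in wild-type cells, where it was not called, and rose in knockout cells by 0.25 ± 0.062, a call lost without knockout tau library 3 (edgeR adjusted p = 0.0505).

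With HT-DNA, 15 of the other NRF2 targets fell and 4 rose in wild-type cells, and the median of the list was -0.15, beside -0.031 over all genes tested. In knockout cells the median was 0.090, beside 0.0091. The falls were led by the exporter Abcc4 (-0.87 ± 0.07), Gclc (-0.84 ± 0.066) and the glutathione transferase Gsta3 (-0.80 ± 0.22), and the rises by Prdx1 (0.42 ± 0.044), Ugdh (0.34 ± 0.058) and Prdx6 (0.34 ± 0.046). Gclc stood at 65.4 ± 3.01 CPM (SD, n = 3) in wild-type vehicle cells and at 36.5 ± 2.80 with HT-DNA. In knockout cells 5 rose and 0 fell, with the malic enzyme Me1 (0.45 ± 0.072), Prdx6 (0.29 ± 0.047) and Gclc (0.26 ± 0.063) at the top, of which Gclc was lost in 5 of 6 fits without 1 library. The interaction of HT-DNA with genotype called 17 higher in knockout cells, led by Gsta3 (1.38 ± 0.30), Gclc (1.10 ± 0.091) and Abcc4 (0.95 ± 0.094), and 3 lower, Ugdh (-0.36 ± 0.082), Txn1 (-0.28 ± 0.083) and Prdx1 (-0.26 ± 0.062). Between the vehicle groups 10 were higher in knockout cells, with Gstp1 (0.81 ± 0.12), Txn1 (0.63 ± 0.059) and Gstm1 (0.58 ± 0.052) first, and 13 lower, with Gsta4 (-2.50 ± 0.57), Abcc3 (-1.37 ± 0.064) and Akr1c13 (-0.72 ± 0.17) first, 29.4% and 38.2% of the list beside 24.7% and 27.3% of all genes.

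Of the factors that set NRF2 activity, both tau and HT-DNA raised 8 of 15 mRNAs in wild-type cells, where 15.8% of all genes rose with tau and 22.8% with HT-DNA. Tau raised the NRF2 gene itself, Nfe2l2 (0.48 ± 0.039), its inhibitor Keap1 (0.56 ± 0.068), the small MAF gene Mafk (0.51 ± 0.067) and the competing repressor Bach1 (0.41 ± 0.049), and 1 fell, Bach2 (-0.42 ± 0.16), a call lost in 4 of 6 fits without 1 library. HT-DNA raised Mafk (0.92 ± 0.066), Bach1 (0.85 ± 0.048), Keap1 (0.57 ± 0.068) and Nfe2l2 (0.22 ± 0.039), and 3 fell, Btrc (-0.30 ± 0.11), Mafg (-0.18 ± 0.038) and Nfe2l1 (-0.17 ± 0.04), the first lost without wild-type HT-DNA library 3 or vehicle library 2 (edgeR adjusted p up to 0.156). Nfe2l2 thus rose in wild-type cells with both agents, whereas Gclm, Srxn1, Txnrd1 and Nqo1 were above vehicle with tau and fell with HT-DNA. In knockout cells tau raised 5, among them Keap1 (0.45 ± 0.072), Nfe2l1 (0.30 ± 0.039), Mafg (0.24 ± 0.038) and Nfe2l2 (0.24 ± 0.039), while Bach1 (0.12 ± 0.05) was not called. HT-DNA there changed 0 of 15 by edgeR (4 higher at an unadjusted p under 0.05, and 0 called by DESeq2), with Nfe2l2 (0.041 ± 0.04), Keap1 (-0.007 ± 0.075) and Bach1 (-0.034 ± 0.05).

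The interaction tests of the regulators called 3 with tau, all smaller in knockout cells, Mafk (-0.39 ± 0.10), Bach1 (-0.29 ± 0.069) and Nfe2l2 (-0.24 ± 0.056), with Keap1 (-0.11 ± 0.10) not called, and Mafk lost without knockout vehicle library 3 (edgeR adjusted p = 0.052). With HT-DNA 6 were smaller in knockout cells, among them Bach1 (-0.89 ± 0.07), Mafk (-0.86 ± 0.10), Keap1 (-0.58 ± 0.10) and Nfe2l2 (-0.17 ± 0.056), and 3 larger, Btrc (0.49 ± 0.15), Mafg (0.29 ± 0.054) and Nfe2l1 (0.20 ± 0.056), of which the first was lost without knockout HT-DNA library 2 (edgeR adjusted p = 0.0598) and the last without knockout HT-DNA library 1 (edgeR adjusted p = 0.0689). In vehicle cells 4 were higher in the knockout, with Maff (0.47 ± 0.10), Nfe2l1 (0.37 ± 0.04) and Cul3 (0.29 ± 0.044) first, and 5 lower, among them Keap1 (-0.69 ± 0.072), Mafk (-0.67 ± 0.071), Crebbp (-0.65 ± 0.058) and Bach1 (-0.29 ± 0.05), while Nfe2l2 (-0.052 ± 0.04) was not called.

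**Figure D3:**
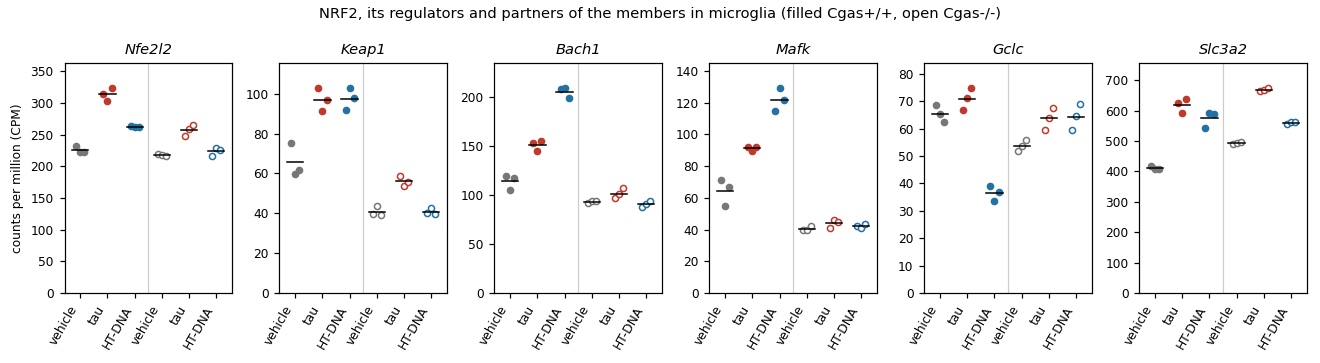
Normalized CPM of Nfe2l2, Keap1, Bach1, Mafk, Gclc and Slc3a2 in the 6 microglial groups, with 1 point per library and a line at the group mean. Bach1 had means of 114 CPM with vehicle and 206 with HT-DNA in Cgas+/+ cells, and of 93.4 and 91.1 in Cgas-/- cells.

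Of the other iron genes, 7 rose and 5 fell with tau in wild-type cells and 7 rose and 2 fell in knockout cells. Rises in wild-type cells were led by the siderophore binder Lcn2 (1.69 ± 0.25), the iron importer Slc11a2 (0.71 ± 0.046) and the ferroxidase Cp (0.58 ± 0.12), and falls by the ferrireductase Steap3 (-0.61 ± 0.062), Epas1 (-0.58 ± 0.085) and Hfe (-0.26 ± 0.072), the last lost without wild-type tau library 1 (edgeR adjusted p = 0.0557). In knockout cells they were Lcn2 (2.13 ± 0.29), Heph (1.79 ± 0.38) and Slc11a2 (0.60 ± 0.046) against Epas1 (-0.69 ± 0.084) and Steap3 (-0.40 ± 0.063). HT-DNA raised 4 and lowered 7 in wild-type cells, among the first Cp (0.59 ± 0.12) and Slc25a28 (0.58 ± 0.077) and among the second Steap3 (-0.39 ± 0.061), Aco1 (-0.36 ± 0.051) and Ncoa4 (-0.34 ± 0.057). In knockout cells 1 fell, the ferritin autophagy receptor Ncoa4 (-0.24 ± 0.054), lost without knockout HT-DNA library 2 or 3 or vehicle library 1 (edgeR adjusted p up to 0.208), and 0 rose by edgeR (4 at an unadjusted p under 0.05).

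The IRE-binding proteins are the products of Aco1 and Ireb2. Aco1 fell with HT-DNA in wild-type cells, as given above, and with tau in wild-type cells by 0.18 ± 0.05, a call lost without wild-type tau library 1 (edgeR adjusted p = 0.0612), and stood at -0.044 ± 0.05 with tau and -0.036 ± 0.05 with HT-DNA in knockout cells, neither called. Ireb2 stood at 0.12 ± 0.045 with tau in wild-type cells, a call lost in 5 of 6 fits that left out 1 library, and at 0.02 ± 0.045 with tau in knockout cells, 0.044 ± 0.046 with HT-DNA in wild-type and -0.063 ± 0.045 with HT-DNA in knockout cells, none of these 3 called. Ncoa4 was not called with tau, at -0.10 ± 0.056 in wild-type and -0.10 ± 0.053 in knockout cells. No gene of this list was called by edgeR in the interaction of tau with genotype (4 higher and 1 lower at an unadjusted p under 0.05), where Ireb2 (-0.10 ± 0.064), Aco1 (0.14 ± 0.071) and Ncoa4 (0.0027 ± 0.077) stood. With HT-DNA 5 interactions were positive and 4 negative. The positive ones were led by Trf (0.51 ± 0.13), Steap3 (0.46 ± 0.087) and Pcbp2 (0.37 ± 0.073), and the negative ones included Slc25a28 (-0.63 ± 0.11) and Cp (-0.52 ± 0.16), of which Cp was lost without knockout vehicle library 2 (edgeR adjusted p = 0.0648). Aco1 (0.32 ± 0.072) was among the positive ones, and Ireb2 (-0.11 ± 0.064) and Ncoa4 (0.10 ± 0.079) were not called. Between vehicle groups 4 were higher in knockout cells, among them Slc39a14 (0.51 ± 0.063), Ncoa4 (0.50 ± 0.055) and Fbxl5 (0.45 ± 0.055), and 10 lower, among them Heph (-1.95 ± 0.38), Hfe (-1.18 ± 0.077), Lcn2 (-1.02 ± 0.32) and Aco1 (-0.14 ± 0.05), of which Lcn2 was lost without wild-type vehicle library 1 (edgeR adjusted p = 0.0735) and Aco1 without knockout vehicle library 1 or wild-type vehicle library 3 (edgeR adjusted p up to 0.105). Ireb2 (0.09 ± 0.045) was not called there.

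Among 18 heme genes, tau raised 5 and lowered 3 in wild-type cells, with the hemoglobin binder Hp (1.10 ± 0.15), the first enzyme of heme synthesis Alas1 (0.71 ± 0.045) and the biliverdin reductase Blvrb (0.52 ± 0.046) against Lrp1 (-0.36 ± 0.055), Flvcr1 (-0.27 ± 0.044) and Blvra (-0.15 ± 0.057), the last lost in each of the 6 fits without 1 library (edgeR adjusted p from 0.0629 to 0.136). In knockout cells it raised 5 and lowered 2, with Hp (1.17 ± 0.13), the heme carrier Slc48a1 (0.73 ± 0.042) and Alas1 (0.70 ± 0.045) against Blvra (-0.19 ± 0.056) and Flvcr1 (-0.18 ± 0.043), where Blvra was lost without knockout tau library 2 or vehicle library 1 (edgeR adjusted p up to 0.123). The second heme oxygenase, Hmox2 (0.90 ± 0.05), was the 1 gene of the list that rose with HT-DNA in wild-type cells, while 7 fell, led by Flvcr2 (-1.07 ± 0.29), Lrp1 (-0.43 ± 0.055) and Uros (-0.39 ± 0.12), the last lost without wild-type HT-DNA library 3 (edgeR adjusted p = 0.0598). In knockout cells 1 rose, Alas1 (0.18 ± 0.045), a call lost in each of the 6 fits without 1 library (edgeR adjusted p from 0.0571 to 0.269), and 0 fell by edgeR (2 at an unadjusted p under 0.05). The interaction with genotype called 1 with tau, Slc48a1 (0.30 ± 0.06), and with HT-DNA 4 positive, among them Slc48a1 (0.50 ± 0.06), Alas1 (0.44 ± 0.063) and Lrp1 (0.41 ± 0.078), and 1 negative, Hmox2 (-0.88 ± 0.072). Between vehicle groups 5 were higher in the knockout, with Hp (0.93 ± 0.15), Cpox (0.60 ± 0.067) and Abcg2 (0.31 ± 0.082) first, and 4 lower, with Flvcr2 (-0.90 ± 0.28), Lrp1 (-0.70 ± 0.055) and Hmox2 (-0.34 ± 0.052) first, 27.8% and 22.2% of the list and so near the 24.7% and 27.3% of all genes.

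Slc7a11 is also a target of ATF4, and its heavy chain partner is the product of Slc3a2. Of 23 ATF4 and integrated stress response genes, 13 rose and 3 fell with tau in wild-type cells and 5 rose and 1 fell in knockout cells. Slc3a2 rose by 0.59 ± 0.04 in the first and by 0.44 ± 0.039 in the second, and its interaction of -0.15 ± 0.056 was not called. The largest rise in both was of Eif2ak2, an interferon-responsive kinase, by 0.91 ± 0.081 and 2.10 ± 0.093. Nupr1 (0.78 ± 0.11) rose and Psat1 (-0.54 ± 0.049), Eif2ak3 (-0.46 ± 0.077) and Eif2ak4 (-0.29 ± 0.052) fell in wild-type cells, and Mthfd2 (0.29 ± 0.053) rose and Psat1 (-0.40 ± 0.047) fell in knockout cells. With HT-DNA in wild-type cells 5 rose and 12 fell, with Eif2ak2 (1.23 ± 0.081), Atf3 (0.87 ± 0.044), Ppp1r15a (0.49 ± 0.058) and Slc3a2 (0.48 ± 0.04) against the serine synthesis genes Phgdh (-0.83 ± 0.059) and Shmt2 (-0.68 ± 0.061) and the kinase Eif2ak3 (-0.76 ± 0.08). In knockout cells 1 rose, Slc3a2 (0.19 ± 0.039), lost in 4 of 6 fits without 1 library, and 0 fell by edgeR, also at an unadjusted p under 0.05.

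The interaction of tau with genotype called 2 of these genes higher, Eif2ak2 (1.19 ± 0.12) and Eif2ak3 (0.37 ± 0.11), and 6 lower, led by Nupr1 (-0.52 ± 0.15), Atf3 (-0.42 ± 0.062) and Trib3 (-0.36 ± 0.086), with Eif2ak3 and Nupr1 each lost in 7 of 12 fits without 1 library. That of HT-DNA called 12 higher, led by Phgdh (0.94 ± 0.08), Eif2ak3 (0.89 ± 0.11) and Atf5 (0.81 ± 0.087), and 4 lower, Eif2ak2 (-1.10 ± 0.13), Atf3 (-0.85 ± 0.062), Ppp1r15a (-0.44 ± 0.078) and Slc3a2 (-0.30 ± 0.056). In vehicle cells 16 were higher in the knockout, among them Ppp1r15a (1.18 ± 0.056), Trib3 (1.13 ± 0.062), Ddit3 (0.90 ± 0.092) and Slc3a2 (0.26 ± 0.039), and 4 lower, among them Eif2ak2 (-2.35 ± 0.093), Eif2ak4 (-0.35 ± 0.053) and Eif2ak1 (-0.19 ± 0.059), the last lost without vehicle library 1 of either genotype (edgeR adjusted p up to 0.0879).

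Across the 18 microglial libraries, which share their 6 groups and so are not independent, the genes whose log2 CPM followed a member most closely were listed as a description among the 13675 genes tested. For Fth1 these were Mapkapk2, Ehd1 and Prdx5 (Pearson's r of 0.957, 0.953 and 0.950), and for Slc40a1 Ralgapa2, Plxnd1 and Fam53b (0.947, 0.938 and 0.919). Hmox1 and Slc7a11 were each the closest to the other (0.977), followed by Pgd and Tnip1 for Hmox1 (0.972 and 0.962) and by Clec5a and Tnfaip2 for Slc7a11 (0.963 and 0.960). The 6 NRF2 target genes correlated with one another between 0.874 and 0.977, whereas Fth1 correlated with Ftl1 at 0.271.

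In hippocampi, none of the 10 members was called between P301S and Ntg mice by edgeR, where 1.39% of the 16453 genes tested were called higher, 0.122% lower and 1.36% past the fold limit of 0.5 as well. Of the members 2, Hmox1 and Ftl1, were at an unadjusted p under 0.05, and DESeq2 called these 2. Hmox1 had lowest, median and highest values of 4.82, 5.95 and 7.99 CPM in Ntg and 5.74, 14.3 and 20.9 in P301S mice, a difference of 1.13 ± 0.28 (edgeR adjusted p = 0.0561). The P301S mice were not alike: mice 29, 36, 65 and 77 stood at 20.9, 19, 15.8 and 12.8 CPM, above all Ntg mice, and mice 43 and 63 at 6.24 and 5.74 within the Ntg range. Without mouse 43 the edgeR adjusted p was 0.00893 and without mouse 63 it was 0.010, and over all 13 fits without 1 mouse it ran to 0.154. Ftl1 stood at 75.5, 95.8 and 101 CPM in Ntg and 87.3, 139 and 171 in P301S mice, a difference of 0.55 ± 0.15 (edgeR adjusted p = 0.0838, and 0.0191 without mouse 63 and 0.0439 without mouse 77). Mice 29, 36, 65 and 43 lay above the Ntg range at 162, 163, 171 and 115 CPM, and mice 63 and 77 within it at 87.3 and 97. DESeq2 gave adjusted p of 0.00298 for Hmox1 and 0.0202 for Ftl1.

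Microglial markers were raised in the 4 P301S mice with the most Hmox1. Their sum over 12 genes was 460–567 CPM in Ntg mice, and in P301S mice 29, 36, 65 and 77 it was 1464, 1353, 1481 and 849, with mice 43 and 63 at 478 and 538. Ftl1 departed from this in mouse 43, above the Ntg range without a raised sum, and in mouse 77, within the Ntg range with one. Of the 12 markers 3 were called higher and 0 lower. Astrocyte markers summed to 4728–5547 CPM in Ntg and 5005–8771 in P301S mice (1 of 8 called higher) and oligodendrocyte markers to 3718–7421 and 4639–8899 (0 of 8 called by edgeR). Astrocyte sums were raised in the same 4 mice, at 8218, 8771, 7802.5 and 6659 CPM in mice 29, 36, 65 and 77. Mice 43 and 63 stood at 5005 and 5267, within the Ntg range. With the microglial markers as a covariate the difference was 0.18 for Hmox1 and 0.18 for Ftl1, with an edgeR adjusted p of 0.9997 each. With the oligodendrocyte markers it was 0.60 and 0.42. Over all 16453 genes edgeR called 249 without a covariate and 9 with the microglial markers. Those markers were raised in the 4 P301S mice with the most Hmox1, so the fit cannot separate the group difference from them. Their part in the result was not tested.

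**Figure D4:**
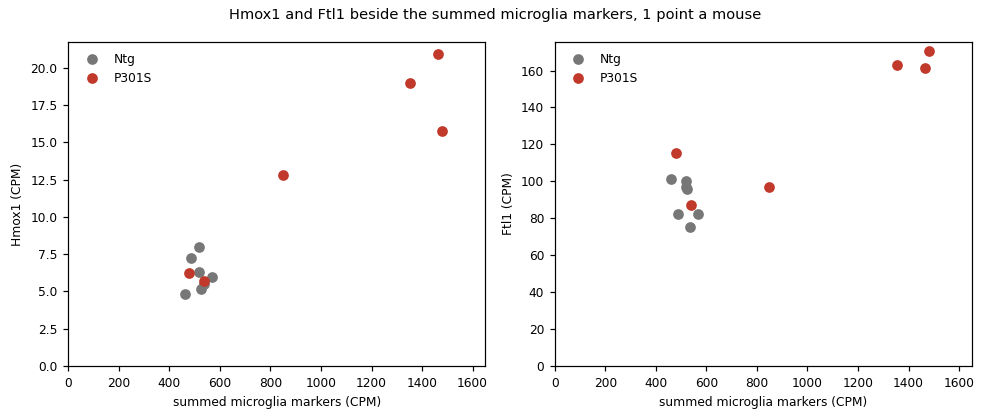
Normalized CPM of Hmox1 and Ftl1 in each hippocampus against the summed CPM of 12 microglial markers in the same library, with 1 point per mouse. The 4 P301S mice with the most Hmox1, 12.8 to 20.9 CPM, were those with the highest marker sums, 849 to 1481 CPM.

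The other 8 members were not called, also at an unadjusted p under 0.05. Fth1, the gene around which the members were picked in microglia, stood at 1801, 1974 and 2249 CPM (lowest, median and highest) in Ntg and 1670.5, 2075 and 2383 in P301S mice, a difference of 0.063 ± 0.092 with a 95% interval of -0.12 to 0.24. Slc40a1 stood at 6.70, 9.08 and 10.4 and 6.31, 7.41 and 9.20 CPM and Tfrc at 69.9, 76 and 82.7 and 53.3, 65.7 and 102, differences of -0.15 ± 0.13 and -0.029 ± 0.15. Gclm had 41.9, 46.2 and 49.8 CPM in Ntg and 41.3, 51.3 and 54.4 in P301S mice, a difference of 0.13 ± 0.07. The remaining differences were 0.11 ± 0.16 for Nqo1, 0.10 ± 0.076 for Srxn1, -0.0031 ± 0.065 for Txnrd1 and -0.043 ± 0.18 for Slc7a11. All 8 overlapped between the groups.

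**Figure D5:**
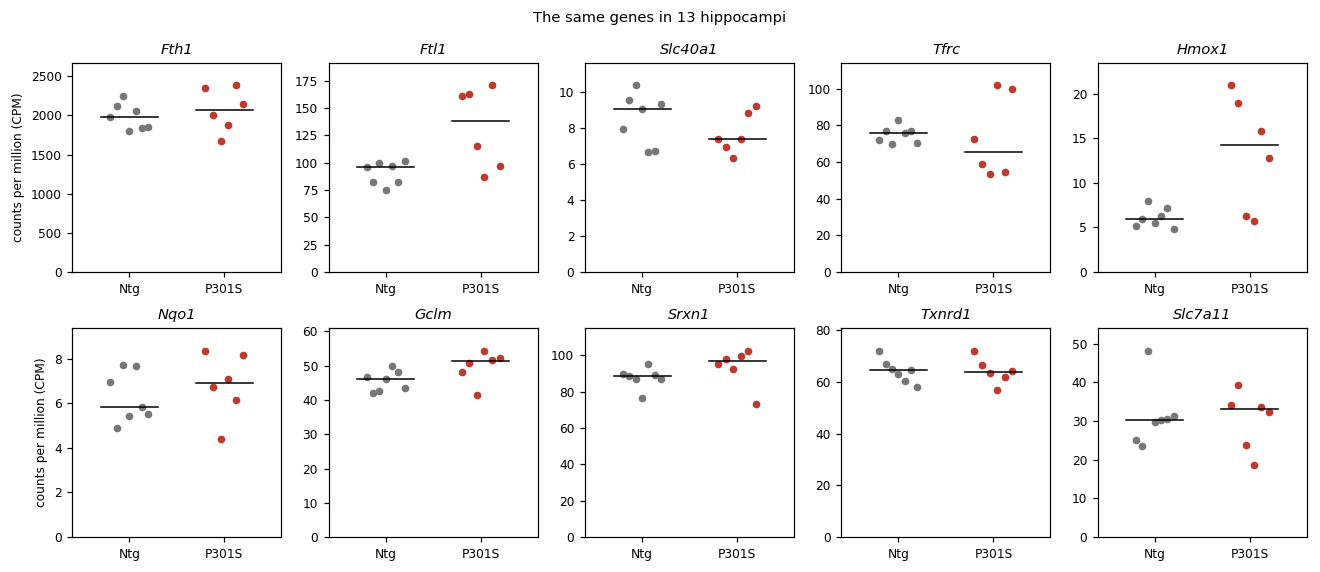
Normalized CPM of each of the 10 genes in hippocampi of 7 Ntg and 6 P301S mice, with 1 point per mouse and a line at the group median. Groups overlapped in all 10 genes, and in Hmox1 4 of 6 P301S mice were above every Ntg mouse.

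Of the pathway lists in hippocampi, 0 of 36 other NRF2 targets and 0 of 19 heme genes were called by edgeR (9 targets higher and 1 lower, and 1 heme gene higher, at an unadjusted p under 0.05; DESeq2 called 3 targets higher and 1 lower). The regulators had 1 of 15 called, the small MAF gene Maff (1.52 ± 0.32), and Nfe2l2 (0.78 ± 0.21), Bach1 (0.33 ± 0.091) and Keap1 (0.016 ± 0.069) were not called, with edgeR adjusted p of 0.0708 for Nfe2l2. Nfe2l2 had a mean of 16.5 CPM in Ntg (SD 2.75, n = 7) and of 28.3 CPM in P301S mice (SD 9.66, n = 6). Of 27 other iron genes 1 rose, the phagosomal metal carrier Slc11a1 (1.98 ± 0.40), and 2 of 23 ATF4 and stress genes, Atf3 (2.42 ± 0.39) and Eif2ak2 (1.03 ± 0.21). The calls of Maff, Slc11a1, Eif2ak2 and Atf3 were lost in 9, 9, 10 and 3 of the 13 fits that left out 1 mouse, for Atf3 those without Ntg mouse 35 or 61 or P301S mouse 36 (edgeR adjusted p up to 0.0584). Gclc (-0.016 ± 0.059), Slc3a2 (0.11 ± 0.076), Aco1 (0.10 ± 0.06), Ireb2 (-0.10 ± 0.10) and Ncoa4 (0.0026 ± 0.07) were not called.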

How the data were processed

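RNA-seq counts of 18 libraries of primary microglia (6 groups of 3) and 13 hippocampi (7 Ntg and 6 P301S) were analysed. The authors deposited raw read counts per Ensembl gene, without normalization, in 1 table per experiment. The submitters' processing notes name GRCm38, edgeR and limma, and the aligner, the counting tool and the annotation are not given in the sources used here. Groups came from the sample labels, and each column was matched to its sample by name.

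All 54532 and 48795 genes were filtered with filterByExpr and scaled by TMM, and the 13675 and 16453 that were left were fitted with the quasi-likelihood test of edgeR 4.0.16 in R 4.3.3, with 1 estimate of spread over all groups of an experiment. P-values were adjusted over all genes tested by the Benjamini-Hochberg method, and a gene was called under 0.05. The log2 fold limits of the study, 1 in microglia and 0.5 in hippocampi, were applied as well. Library totals of 17037459 to 25174764 and 25953296 to 35779977 counts set the precision of low values, and intervals cover 95%. The scripts were tested on simulated data. The 10 members and all gene lists were chosen with earlier results of these data known. From each list, up to 3 genes called higher and 3 called lower with the largest differences and a mean count of at least 20 in the higher group were named, with Nfe2l2, Keap1, Bach1, Ireb2, Aco1, Ncoa4, Gclc and Slc3a2 in every comparison, and for Fth1, Slc40a1, Slc7a11 and Hmox1 the 3 genes with the highest Pearson correlation of log2(CPM + 1). 1 gene that this rule names is counted in its list but not reported here.

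Alternatives were DESeq2 1.42.0, RLE scaling, no filter, the fold limit, only the compared groups, the likelihood-ratio test for interactions, replicate number as a block, sex or marker covariates in hippocampi, and each library left out in turn. IREs were searched in GENCODE transcripts of GRCm38, and promoter sequences came from RefSeq (GRCm38.p6).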

Additional observations from a re-analysis of the deposited data

Results flagged for a closer look

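Single mice stood far from the rest of their group in 2 of 20 pairs of a member and a hippocampal group, and chance flags about 1 in 20. Srxn1 in P301S mice had its lowest value in mouse 77, 73.4 CPM against 92.1 in the nearest mouse, a gap of 0.643 of the range of the group. Slc7a11 in Ntg mice had its highest value in mouse 55, 48.2 CPM against 31.4 in the nearest mouse, a gap of 0.682 of the range.

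The response to tau differed with Cgas genotype, by the interaction test of edgeR, in Slc40a1 by 0.34 and in Gclm by 0.35 on the log2 scale, both larger in Cgas-/- cells. The choice of members used these tau values, so the 2 differences are a description. The response to HT-DNA differed in 8 members, each with the higher value in Cgas-/- cells: by 0.83 in Slc40a1, 0.36 in Tfrc, 0.27 in Hmox1, 1.06 in Nqo1, 0.74 in Gclm, 0.90 in Srxn1, 0.60 in Txnrd1 and 0.44 in Slc7a11. Summed microglial markers were lower in knockout than in wild-type cultures under every treatment, 4664–5152 against 7237–7527 CPM, and their part in these differences was not tested.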

How the results depend on the processing

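Of 1160 log2 differences of members under the alternatives, 1116 kept their direction, and none of the 44 that did not belonged to a member called in the main test. The total holds the fold limit, which reuses the main differences and so could not change a direction. It also holds the tau comparisons that the choice of members used, so the total is a description. The counts of members called (in wild-type and knockout cells 7 and 8 with tau, 7 and 6 with HT-DNA, 7 between vehicle groups, 2 and 8 in the tau and HT-DNA interactions) were met again with the replicate number as a block, 7, 8, 7, 6, 7, 2 and 8. All tau counts here, those of the interaction included, come from values that the choice of members used. They are a description, and nothing is read from their return. The HT-DNA interaction called 9 members with DESeq2, with RLE scaling and with only the compared groups and 10 with no filter. The tau interaction called 3 with no filter, the likelihood-ratio test and only the compared groups. With no filter 9 were called with tau in knockout and 8 with HT-DNA in wild-type cells. The other alternatives, the fold limit aside, gave the main counts in microglia. No pairing of the libraries by number was seen: deviations of same-numbered libraries correlated between -0.12 and 0.15, and those of other numbers between -0.12 and 0.13. Of 18 libraries, 6 were closest to those of their own number. With groups of 3 this check is weak and cannot exclude a shared culture. Under the fold limit 1 and 3 members were called with tau in wild-type and knockout cells, 0 and 0 with HT-DNA and 0 between vehicle groups. In hippocampi DESeq2 called 2 members and edgeR without the filter 1. Without 1 library the counts ran from 7 to 7 and 8 to 9 with tau, 7 to 7 and 5 to 6 with HT-DNA, 7 to 7 between vehicle groups, 2 to 3 and 8 to 10 in the tau and HT-DNA interactions and 0 to 2 in hippocampi, where 1 was called without mouse 43, 2 without mouse 63 and 1 without mouse 77. Over all genes, edgeR called 249 in hippocampi and DESeq2 911. With a covariate edgeR called 138 (sex), 9 (microglial markers) and 5 (oligodendrocyte markers). It called 946, 691 and 462 without P301S mouse 43, 63 or 77. Without P301S mouse 29, 36 or 65 the number was 22, 16 and 24. Without Ntg mouse 35, 46, 55, 61, 62, 68 or 71 it was 14, 23, 216, 14, 26, 20 and 21. With HT-DNA in knockout cells edgeR called 180, or 312 without the filter. The differences that changed direction were uncalled values near 0: Hmox1 with HT-DNA in wild-type cells (0.029 with DESeq2, 0.0295 with RLE scaling, 0.013 with only the compared groups), Ftl1 between vehicle groups (0.012 with no filter, 0.011 with only the compared groups), Hmox1 between vehicle groups (0.015 with no filter, 0.013 with only the compared groups), Ncoa4 in the tau interaction (-0.012 with DESeq2, -0.012 with RLE scaling), Fth1 in P301S hippocampi (-0.13 with the microglial marker covariate, -0.11 with the oligodendrocyte marker covariate), Tfrc in P301S hippocampi (0.12 with the microglial marker covariate), Nqo1 in P301S hippocampi (-0.021 with the microglial marker covariate, -0.24 with the oligodendrocyte marker covariate), Ncoa4 in P301S hippocampi (-0.0041 with no filter, -0.045 with the microglial marker covariate, -0.093 with the oligodendrocyte marker covariate). Without 1 library such values ran with tau in wild-type cells Ftl1 -0.12 to 0.0047, Slc40a1 -0.028 to 0.051, with HT-DNA in wild-type cells Hmox1 -0.029 to 0.029, Slc7a11 -0.021 to 0.038, with HT-DNA in knockout cells Keap1 -0.042 to 0.045, between vehicle groups Ftl1 -0.10 to 0.059, Hmox1 -0.027 to 0.031, Nqo1 -0.17 to 0.022, in the tau interaction Fth1 -0.043 to 0.027, Tfrc -0.11 to 0.029, Hmox1 -0.028 to 0.043, Slc7a11 -0.015 to 0.0804, Ncoa4 -0.044 to 0.0601, in the HT-DNA interaction Ncoa4 -0.0015 to 0.16, in P301S hippocampi Tfrc -0.15 to 0.047, Txnrd1 -0.039 to 0.028, Slc7a11 -0.13 to 0.094, Ncoa4 -0.024 to 0.052, Gclc -0.044 to 0.014, Keap1 -0.037 to 0.054. The cause of these changes was not tested. Low counts (Nqo1, with the fewest of the 10) and groups of 3 libraries limit what could be detected.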
